A study of Rattus norvegicus with 17 samples.

Results

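The 40 genes described here drive or carry out DNA replication and cell division, and were read in skin of hairless rats after chronic exposure to millimetre waves. They were chosen by name, and each was matched to array probes through the probe's sequence name. Of the 40, 36 had a named probe, and all 36 were kept by the filter on dim probes, among 11166 named genes and 20709 probes kept in all. The proliferation marker Mki67, the topoisomerase gene Top2a, the helicase gene Mcm5 and the checkpoint kinase gene Bub1b had no named probe and were not analysed here. The probes of 35 members lay well above background on all 17 arrays. The probe of Ccne2 did so on 10 of them, 5 exposed and 5 sham, so its low values are not exact.

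Both groups were male CD hairless rats, 2 to 3 months old at the start. Over 5.5 months, exposed rats spent 3 h on each of 3 days a week in a 94 GHz field, and the other rats were sham exposed. Whole skin explants, kept in preservative, were measured on 1-colour arrays, of which 9 were exposed and 8 sham. Only 6 exposed animals are named in the design, beside 8 sham animals, and rats were caged in pairs; the labels give no animal or cage for any array. Exposed arrays from a shared animal would make the p-values too small and the intervals too narrow. Both measure no more than the spread between arrays.

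A dividing cell first commits to a new round through D- and E-type cyclins and their kinases, which release E2F transcription factors. Origins of replication are then licensed with the MCM helicase, DNA is copied with the help of the sliding clamp, and nucleotides are supplied by a small set of enzymes. Cyclin B with Cdk1 then starts mitosis, in which Aurora and Polo kinases, the spindle checkpoint and the anaphase-promoting complex order the separation of chromosomes. In skin, most dividing cells lie in the basal epidermis, the matrix of growing hair follicles and the sebaceous glands. In whole tissue, fewer cells of a type and less RNA per cell cannot be told apart.

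The promoters of these genes are shown first because 2 of the motifs searched differed in frequency between mitotic and replication members. RefSeq promoters of the assembly GRCr8, from 250 bases before to 50 bases after each start site, were found for 30 of the 40 members. Stretches of 150 bases upstream of the start follow, read 5' to 3'. Capitals mark TTTGAA (the core of the cell cycle homology region), CCAAT (the NF-Y box) and the E2F forms TTTCCCGC, TTTGGCGC, TTTCGCGC and TTTGCCGC, each on either strand, so that ATTGG is CCAAT read from the other strand. In Mcm6 an E2F form of each strand overlaps the other. The first 3 belong to mitotic genes that varied together from array to array, and Mcm6 is a replication gene. Aurka is the only mitotic member whose slope on the cell cycle score, described below, was negative over all 17 arrays.
Ccnb2: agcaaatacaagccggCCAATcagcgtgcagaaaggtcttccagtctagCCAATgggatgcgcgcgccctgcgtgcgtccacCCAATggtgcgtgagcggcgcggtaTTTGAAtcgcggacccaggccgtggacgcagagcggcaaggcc
Cdk1: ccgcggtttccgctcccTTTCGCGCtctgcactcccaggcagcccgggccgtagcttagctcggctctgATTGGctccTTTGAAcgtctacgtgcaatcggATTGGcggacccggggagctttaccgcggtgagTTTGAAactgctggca
Cdc20: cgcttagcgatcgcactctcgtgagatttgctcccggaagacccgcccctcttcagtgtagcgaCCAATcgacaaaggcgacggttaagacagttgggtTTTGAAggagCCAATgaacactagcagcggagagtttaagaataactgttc
Mcm6: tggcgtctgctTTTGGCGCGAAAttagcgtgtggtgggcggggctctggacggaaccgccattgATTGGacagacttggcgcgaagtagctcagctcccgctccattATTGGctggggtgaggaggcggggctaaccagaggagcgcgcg
Aurka: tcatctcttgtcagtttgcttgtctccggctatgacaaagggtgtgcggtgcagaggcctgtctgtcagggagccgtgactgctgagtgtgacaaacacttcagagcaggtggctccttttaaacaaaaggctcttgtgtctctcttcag
The Ccnb2 stretch lies at chr8:79981659-79981808, minus strand. The others lie at chr20:19265143-19265292, plus strand (Cdk1), chr5:137255800-137255949, minus strand (Cdc20), chr13:42404353-42404502, minus strand (Mcm6) and chr3:181560770-181560919, minus strand (Aurka).

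Over the whole windows, TTTGAA was present in 10 of 15 mitotic members and in 1 of 12 replication members, against 18.3% of all 33469 promoters. CCAAT was present in 12 of 15 mitotic and 8 of 12 replication members, against 37.5% of all. Both motifs together were found in 9 of 15 mitotic members and in 7.41% of all promoters. The E2F forms showed the opposite split, with 8 of 12 replication members and 1 of 15 mitotic members, against 2.14% of all. CCAAT was frequent in both sets, and of the 3 members of G1 and S entry with a promoter 1 held CCAAT, 0 held TTTGAA and 0 an E2F form. The 15 mitotic members here include Mki67, Top2a and Bub1b, which have a promoter but no array value. A match describes these letters only, and is no evidence of binding.

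Over the series, the 75th percentile of signal, to which each array was scaled, ran from 1077 to 1703, between 66.7% and 70.8% of probes lay well above background, and no spot was saturated. Basal and differentiated keratinocyte genes such as Krt5, Krt14 and Krt1 were well above background on all arrays, as the label of skin requires. Hair follicle and skeletal muscle markers varied widely between explants. Exposed replicate 4 stood apart in the cell cycle genes, with the lowest value in 24 of the 36 members, so counts and estimates are also given without it. As it was singled out by its low values in these same members, leaving it out is bound to raise most of their differences. Levels are log2 of the signal minus the array's 75th percentile, and a level of one probe is not set against that of another.

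The first comparison asked whether the cell cycle genes differed between exposed and sham skin. No member passed the test: 0 of 36 had an adjusted p under 0.05 (limma, Benjamini-Hochberg; 0% of 20709 probes), with 0.983 as the lowest adjusted p. Gins2 was the 1 member at an unadjusted p under 0.05, against 4.55% of all probes, of which 0.594% were higher in exposed skin and 3.96% lower. The estimate was higher in exposed skin for 18 members and lower for 18, whereas 38.7% of all probes were higher. The median difference was 0.0040 log2 units over the members and -0.0247 over all probes. Differences ran from -0.11 in Ccne2 to 0.21 in Gins2, and the groups overlapped in every one of the 36 members (0.00483% of all probes did not overlap). For 35 members the whole 95% interval stayed inside a 1.5-fold change in both directions, Ccne2 being the exception. It also did for 38 of 40 other replication genes and 45 of 46 other mitosis genes, but for 0 of 14 hair follicle markers. The share over all probes was not taken, so this count is not particular to the members.

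**Figure D1:**
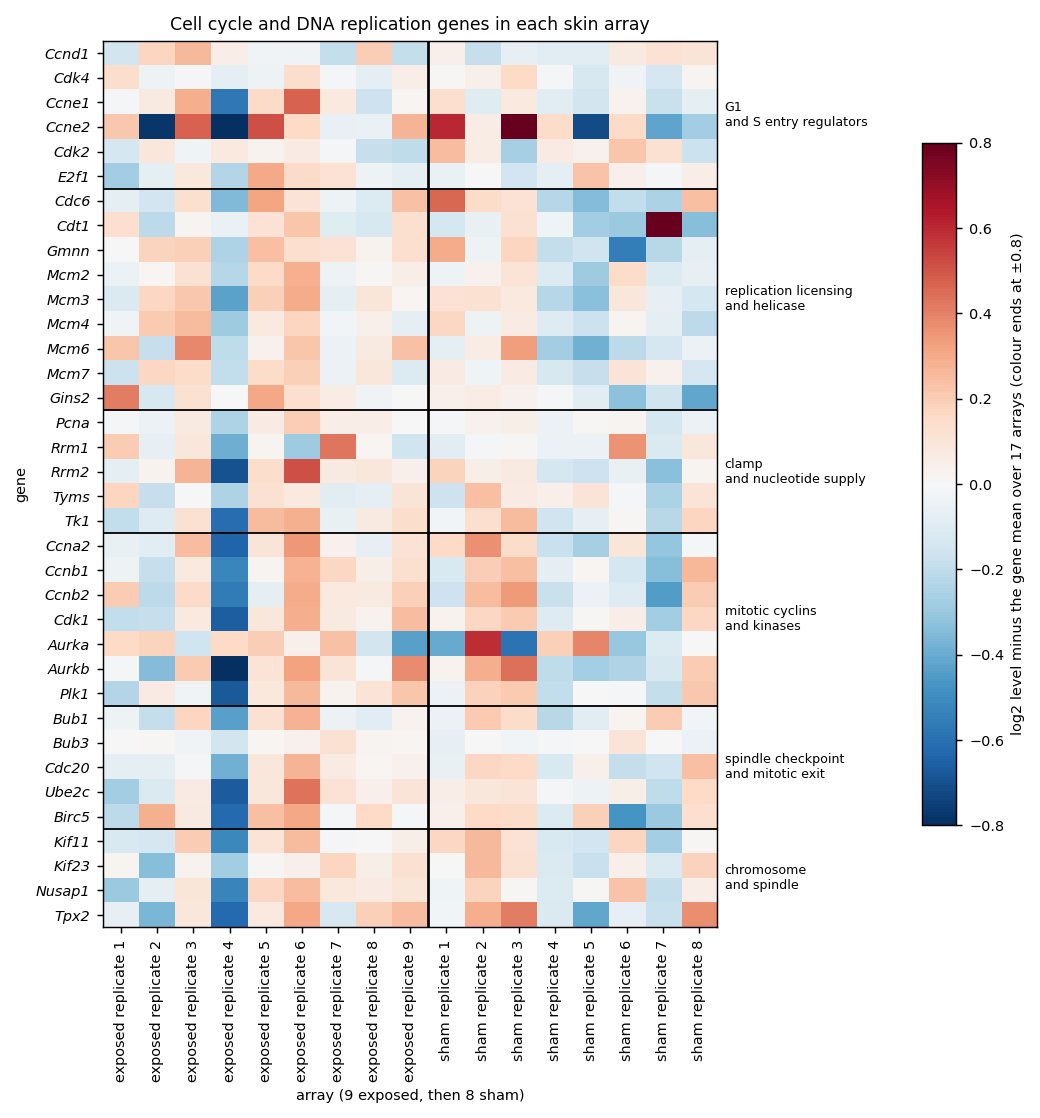
Log2 level of each of the 36 measured members (rows, by role) in each of the 17 arrays (columns, 9 exposed then 8 sham), centred on the mean of the gene; red is higher and blue is lower, and the colour ends at 0.8 either way. Exposed replicate 4 is blue in 32 of the 36 rows, and no row separates the 9 exposed from the 8 sham arrays.

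Regulators of G1 and of entry into S phase did not move one way, with 3 of 6 higher and 3 lower in exposed skin and none at an unadjusted p under 0.05; without exposed replicate 4, 5 were higher and 1 lower. Ccnd1, the D-type cyclin that carries growth signals to the cell cycle, lay between -0.36 and 0.09 in exposed skin (median -0.19) and between -0.35 and -0.05 in sham skin (median -0.18). The sham values sat inside the exposed range, and the difference was 0.02 (-0.13 to 0.17, limma adjusted p = 0.988). Cdk2, the kinase partner of E-type cyclins, had the smallest p of the group. Its level ran from -1.71 to -1.41 in exposed arrays (median -1.52) and from -1.77 to -1.26 in sham arrays (median -1.44). The difference was -0.07 (-0.23 to 0.08, limma adjusted p = 0.983), with 3 of 9 exposed arrays above the sham mean. Ccne2, an E-type cyclin, had the lowest estimate of any member and the widest spread. It ran from -7.13 to -5.38 in exposed skin (median -5.74) and from -6.62 to -4.97 in sham skin (median -5.80). Its difference was -0.11 (-0.65 to 0.43, limma adjusted p = 0.986) and turned to 0.03 without exposed replicate 4, the lowest array. Of the remaining genes of this role, Ccne1 was at 0.08, the D-cyclin kinase Cdk4 at 0.02 and the transcription factor E2f1 at -0.01, with a second E2f1 probe at 0.07.

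Among licensing and helicase genes, 9 of 9 measured members had a higher estimate in exposed skin (38.7% of all probes). Estimates ran from 0.01 in the loader Cdc6 to 0.21 in Gins2, with a median of 0.08. The median Pearson correlation between these genes across the 17 arrays was 0.46, so they are not 9 separate observations. With normexp background correction 7 of 9 were higher, Cdc6 being at -0.04 and Cdt1 at -0.03, and without exposed replicate 4 all 9 were. Only 1 of the 9 had an unadjusted p under 0.05 and none passed after adjustment. Gins2 encodes a subunit of the GINS complex, which activates the helicase at origins. Exposed arrays ran from -4.80 to -4.27 (median -4.62) and sham arrays from -5.09 to -4.62 (median -4.73). The 3 lowest arrays were sham and the 4 highest exposed, and the others were mixed. The difference was 0.21 (0.03 to 0.38, unadjusted p = 0.0252, limma adjusted p = 0.983), with 8 of 9 exposed arrays above the sham mean. On slides 1 to 4 it was 0.08, 0.11, 0.06 and 0.30, and with slide as a block it was 0.13. With normexp background correction it was 0.02 (unadjusted p = 0.749 in limma).

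Geminin (Gmnn), which blocks relicensing, and Mcm6, a helicase subunit, came next in this role and were chosen for mention after their values were seen. Gmnn ran from -3.07 to -2.58 in exposed arrays (median -2.69) and from -3.38 to -2.53 in sham arrays (median -2.94). The difference was 0.18 (-0.02 to 0.39, unadjusted p = 0.080 in limma), and the lowest and the highest array were both sham. It was 0.11 with normexp. On slides 1 to 4 it was -0.01, 0.07, 0.19 and 0.42. Mcm6 ran from -2.48 to -1.90 in exposed and from -2.67 to -1.95 in sham arrays, with medians of -2.21 and -2.39. Its difference was 0.17 (-0.04 to 0.38, unadjusted p = 0.10 in limma), and on slide 2 it was -0.03. The helicase subunits Mcm2, Mcm3, Mcm4 and Mcm7 lay between 0.05 and 0.08. A second Mcm2 probe gave 0.27 (unadjusted p = 0.038 in limma). The loader Cdt1 was at 0.03.

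Clamp and nucleotide supply genes were split, 2 higher and 3 lower in exposed skin, whereas all 5 were higher without exposed replicate 4. Pcna, the sliding clamp, ran from 0.82 to 1.27 in exposed arrays (median 1.13) and from 0.93 to 1.12 in sham arrays (median 1.07). The exposed arrays held both the highest and the lowest value, and the difference was 0.03 (-0.08 to 0.14, limma adjusted p = 0.983), or 0.06 without exposed replicate 4. Rrm2, the small subunit of ribonucleotide reductase, had the smallest p and the largest estimate of the role. It ran from 1.53 to 2.74 in exposed skin (median 2.30) and from 1.90 to 2.41 in sham skin (median 2.21). Again exposed arrays lay at both ends, and the difference was 0.09 (-0.17 to 0.35, limma adjusted p = 0.983), with a second probe of the gene at -0.03. Without exposed replicate 4, the lowest array, it was 0.18. The large subunit Rrm1, thymidylate synthase Tyms and thymidine kinase Tk1 lay between -0.03 and -0.02.

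Mitotic cyclins and kinases numbered 2 higher and 5 lower, all within 0.06 log2 units of 0. Without exposed replicate 4 all 7 were higher, from 0.02 in Cdk1 to 0.11 in Ccnb2. Cdk1, the kinase that starts mitosis, ran from 0.39 to 1.34 in exposed arrays (median 1.12) and from 0.77 to 1.26 in sham arrays (median 1.09). Its difference of -0.06 (-0.29 to 0.18, limma adjusted p = 0.985) includes exposed replicate 4, the array at 0.39, and was 0.02 without it. The cyclins Ccna2, Ccnb1 and Ccnb2 lay between -0.01 and 0.03. The Aurora kinases Aurka and Aurkb were at 0.05 and -0.03, and the Polo kinase Plk1 at -0.04.

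Spindle checkpoint and mitotic exit genes gave 2 higher and 3 lower, and 5 higher without exposed replicate 4, when Bub1 was at 0.0046 and Birc5 at 0.13. Bub1, a checkpoint kinase, ran from -1.17 to -0.45 in exposed arrays (median -0.77) and from -0.95 to -0.52 in sham arrays (median -0.73), with a difference of -0.05 (-0.24 to 0.14, limma adjusted p = 0.985). Birc5, survivin, had the largest estimate of the role, 0.05 (-0.22 to 0.32, limma adjusted p = 0.986). Its exposed arrays ran from -1.17 to -0.23 (median -0.47) and its sham arrays from -1.02 to -0.35 (median -0.46). The range of sham values lay within that of exposed values in both genes. The checkpoint protein Bub3 was at 0.01, the activator of the anaphase-promoting complex Cdc20 at -0.02, and its ubiquitin-conjugating enzyme Ube2c at -0.05.

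The 4 measured chromosome and spindle genes all had a lower estimate in exposed skin, by 0.03 to 0.06 log2 units, and none reached an unadjusted p under 0.05. Without exposed replicate 4, 3 of them were higher, Kif11 at 0.02, Nusap1 at 0.03 and Tpx2 at 0.01, and Kif23 was at -0.01. Kif23, a kinesin of the central spindle, ran from -1.86 to -1.35 in exposed arrays (median -1.49) and from -1.70 to -1.26 in sham arrays (median -1.50). Its difference was -0.04 (-0.21 to 0.12, limma adjusted p = 0.985). Tpx2, which activates Aurora A on the spindle, ran from -3.25 to -2.32 in exposed arrays (median -2.56) and from -3.05 to -2.22 in sham arrays (median -2.68). Its exposed median was the higher although its mean difference was -0.06 (-0.36 to 0.23, limma adjusted p = 0.986). The spindle kinesin Kif11 and the microtubule-binding gene Nusap1 were at -0.04 and -0.03.

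**Figure D2:**
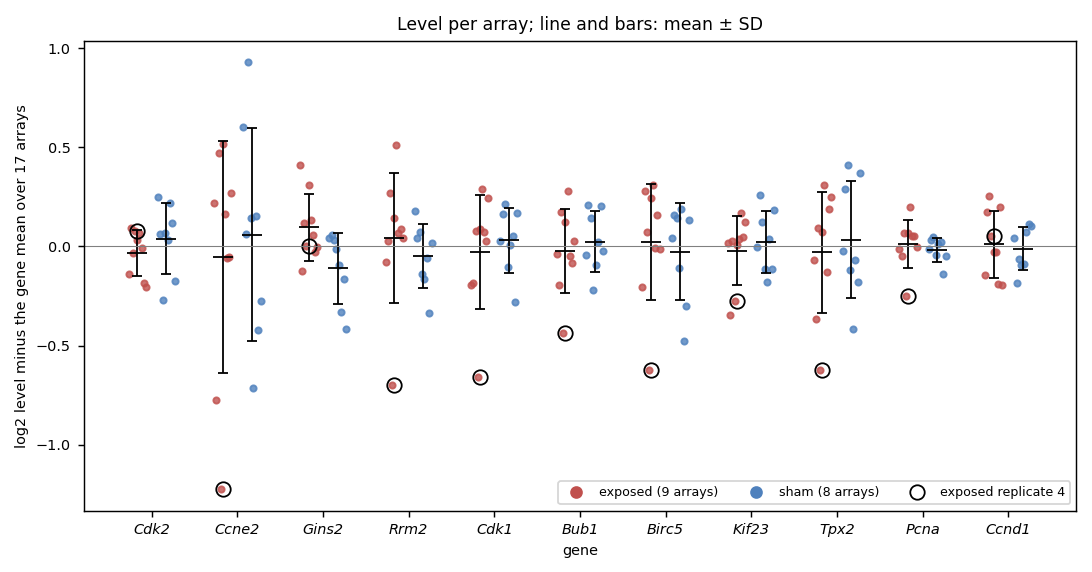
Level per array of 11 members (log2 minus the gene's mean over 17 arrays), exposed in red (9 arrays) and sham in blue (8 arrays), with the mean and SD of each group; the ring marks exposed replicate 4. The groups overlap in all 11 genes, and the ringed array is the lowest in 7 of them.

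**Figure D3:**
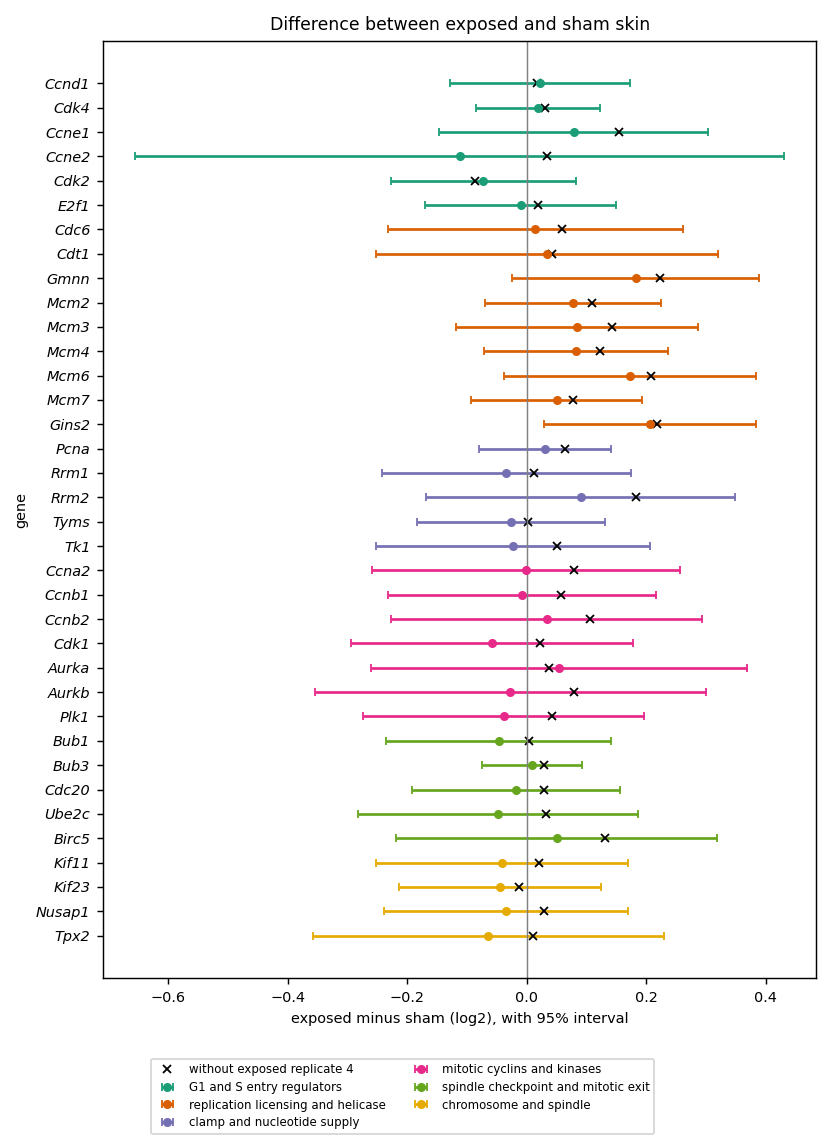
Difference between exposed and sham skin (log2, points) with its 95% interval (bars) for the 36 members, coloured by role; crosses give the difference without exposed replicate 4. Of the 36 intervals only that of Gins2 leaves out 0, and 34 crosses lie above 0.

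The balance of 18 higher and 18 lower was 21 and 15 with median scaling. It was 17 and 19 with normexp and with slide as a block. It moved further when 1 array was left out. Exposed replicate 4 had the lowest value of all 17 arrays in 24 of the 36 members, and its mean over the members was -0.39 log2 units from the overall mean, against -0.13 to 0.21 in the other 16 arrays. Without it 34 of 36 members were higher in exposed skin (40.2% of all probes), the exceptions being Cdk2 at -0.09 and Kif23 at -0.01. That array was singled out by these same members, so a rise in most differences without it followed from the choice. Most members also varied together, so such counts, here and by role, are not separate observations. The median difference became 0.043 over the members and -0.023 over all probes. Still no member passed (0% of all probes; smallest adjusted p of the members 0.966, limma), and 3 had an unadjusted p under 0.05, namely Gmnn at 0.22, Gins2 at 0.22 and Rrm2 at 0.18 (0.613% of all probes were so and higher). The same array ranked second lowest in the hair follicle score, at -3.04, second highest in the skeletal muscle score, at 5.66, and highest in the differentiated keratinocyte score, at 0.27. Its 75th percentile of 1569 and its 68.8% of probes well above background lay inside the range of the other arrays. The part of these marker levels in the low cell cycle values was not tested.

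Slide, taken here as the first number of the code in each sample title, was compared across all 17 arrays. The titles do not say what that number is, and the further numbers of the code were not tested. No member differed between the 4 slides (0 of 36 in limma; 0% of all probes), and none had an unadjusted p under 0.05 (7.93% of all probes). The median member difference between exposed and sham arrays was -0.047 on slide 1, with 12 members higher and 24 lower. It was -0.0030 on slide 2, where 18 were higher, 0.115 on slide 3, where 29 were higher, and 0.095 on slide 4, where 28 were higher. Slide 3 holds 1 array of each group and slide 4 holds 1 exposed array, so these are values with little replication.

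The members varied between arrays slightly more than probes as a whole. The median SD over all 17 arrays was 0.211 log2 units, beside 0.194 for all probes and 0.178 for all named genes kept. The steadiest member was Bub3, with an SD of 0.060 and a highest array 1.21-fold above the lowest, and Cdk4 and Pcna followed with SDs of 0.087 and 0.096. Ccne2 had the largest SD, 0.547, with a 4.45-fold range that is not exact because of its dim arrays, followed by Aurkb at 0.324 and Aurka at 0.313.

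What variation there was ran in common through most members. Over pairs of members, the median Pearson correlation across the 17 arrays was 0.48, and 47.0% of pairs were over 0.5, against a median of 0.0071 and 6.42% over all named genes. The pairs share arrays and scaling, and these values are a description. Mitotic cyclins and kinases had the highest median of the roles, 0.83, although 28.6% of their pairs were negative. Among chromosome and spindle genes 100% of pairs were over 0.5, with a median of 0.73. The 16 mitotic members together had a median of 0.71. The 14 replication members had a median of 0.42 and the 6 regulators of G1 and S entry 0.03. Without exposed replicate 4 and sham replicate 5, the arrays farthest from the median of the cell cycle score, the median was 0.34 over all members, with 31.4% of pairs over 0.5, and 0.55 over mitotic members and 0.33 over replication members. Over all named genes it was then 0.0078, with 7.04% of pairs over 0.5.

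To test this shared variation with other genes, a cell cycle score was made as the mean centred log2 level of 86 replication and mitosis genes outside the 40, and each probe was fitted against it with the exposure group in the model. A slope of 1 means that a gene moved as much as the score did. The slope was positive in 32 of 36 members (45.3% of all probes) with a median of 1.10. An adjusted p under 0.05 with a positive slope was reached by 17 members and with a negative slope by 0 (limma; 0.704% and 0.034% of 20608 probes). These 17 calls rested on exposed replicate 4: without it 0 members passed (0% of all probes; smallest adjusted p of the members 0.0532), and the score then spanned 0.256 in place of 0.497 log2 units. Without it 31 of 36 slopes were positive, with a median of 1.03. At an unadjusted p under 0.05, a rule added after the data were seen, 21 members had a positive slope without that array (4.15% of all probes), compared with 27 over all arrays (6.5% of all probes). Without sham replicate 5 as well, 22 members were so (2.58% of all probes), with a median slope of 1.14, and 0 passed after adjustment.

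The roles differed in how many of their members passed with all 17 arrays, and no role had a member that passed without exposed replicate 4. Mitotic cyclins and kinases passed in 6 of 7, with slopes of 1.89 in Ccna2, 2.30 in Aurkb, 1.67 in Cdk1, 1.60 in Ccnb2, 1.59 in Plk1 and 1.42 in Ccnb1. Chromosome and spindle genes passed in 3 of 4, with Tpx2 at 1.99, Kif11 at 1.51 and Nusap1 at 1.33, whereas Kif23 at 0.95 did not. Cdc20 at 1.04 and Ube2c at 1.60 were the 2 of 5 that passed among checkpoint and exit genes. In nucleotide supply, Rrm2 at 1.84 and Tk1 at 1.65 passed while Pcna, Tyms and Rrm1 lay between 0.53 and 0.63. In licensing, Cdc6 at 1.47 and Mcm3 at 1.29 passed of 9, and among regulators of G1 and S entry the E-type cyclins Ccne1 at 1.38 and Ccne2 at 3.26 passed of 6. The difference between roles was not tested.

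A slope below 0 was found in 4 members, none of which passed: Ccnd1 at -0.06, Cdt1 at -0.15, Cdk2 at -0.30 and Aurka at -0.60 (-1.88 to 0.67, limma adjusted p = 0.761). The promoter stretch of Aurka above holds none of the motifs, but its start site was taken as annotated and was not checked. The windows of Ccne1 and Tk1 held none either, and both passed, while Bub3 held CCAAT and had a slope of 0.21. TTTGAA was present in 5 of 10 members that passed and in 3 of 16 others with a promoter. For CCAAT these counts were 8 and 10, and for the E2F forms 2 and 6. A relation of motifs to slopes was not tested. Aurka ran from 2.31 to 2.98 in exposed arrays (median 2.90) and from 2.15 to 3.34 in sham arrays (median 2.69). Its highest and lowest arrays were both sham, and exposed replicate 4 was not its lowest. Gins2, the member with the smallest p between exposed and sham skin, had a slope of 0.22 (-0.51 to 0.95) with an interval that held 0.

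**Figure D4:**
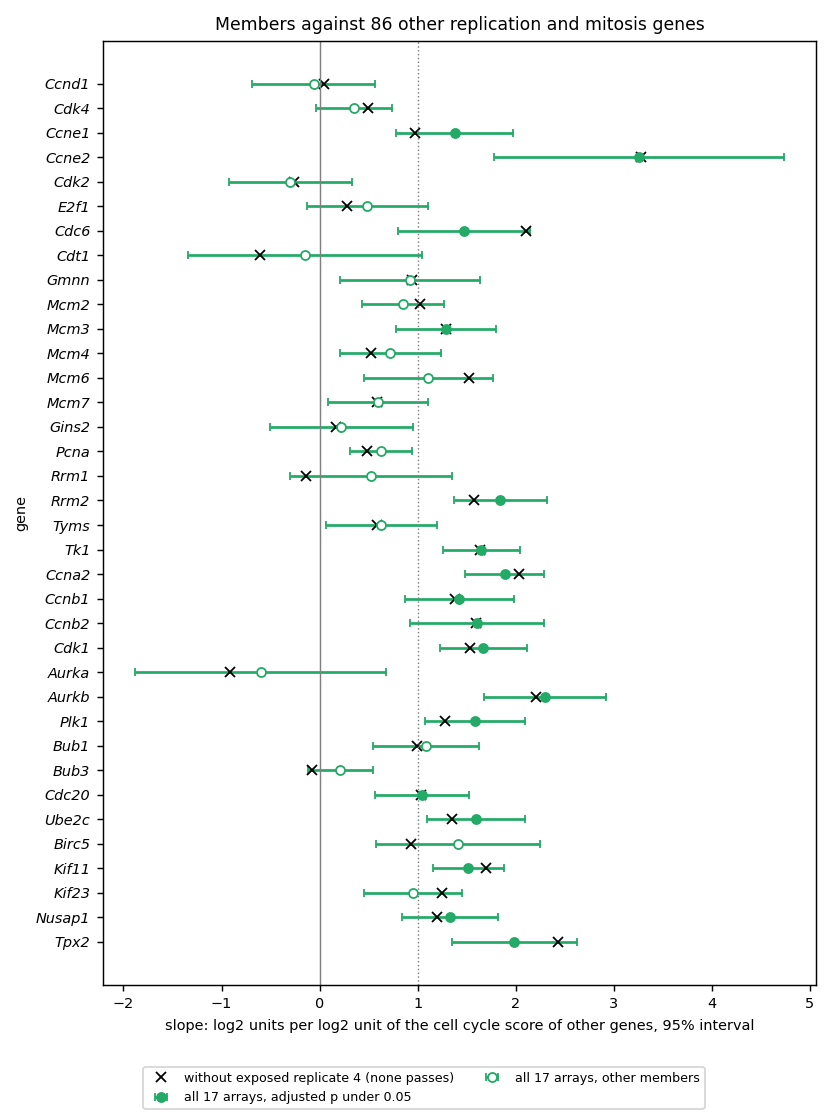
Slope of each member on the cell cycle score of 86 other genes (log2 per log2, points) with its 95% interval (bars), filled where the adjusted p was under 0.05 over all 17 arrays; crosses give the slope without exposed replicate 4, where none passed. The dotted line is a slope of 1; 32 points and 31 crosses lie above 0.

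Other genes of the pathway, listed with the members, were compared between exposed and sham skin in the same fit, and 0 of the 40, 46 and 28 measured genes of 3 lists passed (limma; 0% of all probes). Other replication genes were higher in 23 and lower in 17 of 40, led by the polymerase alpha subunit Pola1 at 0.34 (unadjusted p = 0.040 in limma) and the origin kinase Cdc7 at -0.18. Other mitosis genes were higher in 15 and lower in 31 of 46, led by Fam83d at -0.17 and the Cdk subunit Cks1b at 0.08. Cell cycle control genes and inhibitors were higher in 12 and lower in 16 of 28, led by the checkpoint kinase Chek1 at 0.25 (unadjusted p = 0.059 in limma) and the cyclin Ccnd2 at -0.21. The Cdk inhibitor Cdkn1a was at -0.06 (-0.16 to 0.05). Of those 28 control genes, 1 passed on the cell cycle score with all arrays, Fbxo5, an inhibitor of the anaphase-promoting complex, at 1.45.

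The 10 genes outside all these lists with the smallest p of a positive slope on the score over the 17 arrays included Spag5, Ube2t, Cenpq, Cenpt, Kif18b, Pclaf, Kntc1, Depdc1b and Bard1. The slopes of these genes ran from 1.32 in Kntc1 to 2.43 in Pclaf, within the range of the members that passed. Outside the score's own genes, none of 20608 probes passed with a positive slope once exposed replicate 4 was left out.

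Explants can hold more or less of each skin compartment, so the members were set beside marker scores of 13 cell types. The hair follicle score, from 14 markers such as Krt25 and Krt27, ran from -3.04 to 2.28 in exposed and from -5.56 to 2.37 in sham arrays. All 14 follicle markers were detected in both groups, and Krt82 cleared background on 7 exposed and 5 sham arrays. The slope on this score was positive in 32 of 36 members, with a median of 0.049, against a median of -0.0045 over all probes. The share of all probes with a positive slope was not taken. An adjusted p under 0.05 was reached by 6 members with a positive slope and by 0 with a negative one (limma; 3.14% and 1.23% of all probes). These were Ccne2 at 0.21 log2 units per unit of the score, Aurkb at 0.12, Tpx2 at 0.11, Cdc6 at 0.086, Mcm6 at 0.085 and Mcm3 at 0.072. Without exposed replicate 4, 30 of 36 slopes were positive, with a median of 0.028, and Mcm6 and Tpx2 passed (2.53% of all probes). Without sham replicate 5 as well, 30 of 36 were positive, with a median of 0.049. Mcm6 alone then passed, with a slope of 0.13 and an adjusted p of 0.0130 in limma (2.63% of all probes).

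**Figure D5:**
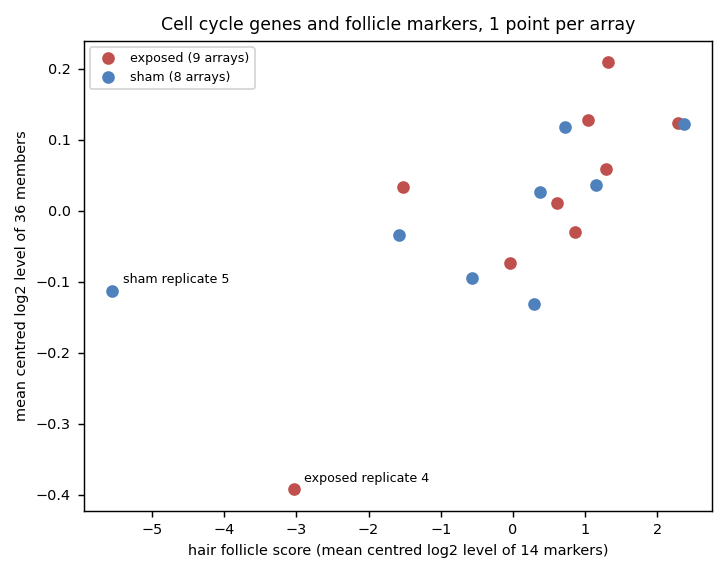
Mean centred log2 level of the 36 members (vertical axis) against the hair follicle score, the mean centred log2 level of 14 markers (horizontal axis), 1 point per array, exposed red and sham blue. Sham replicate 5, with the lowest follicle score of -5.56, has a member mean of -0.11. That is below every other sham array except sham replicate 7, at -0.13. Exposed replicate 4, at a follicle score of -3.04, has the lowest member mean of -0.39.

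On the other 12 marker scores, 0 members passed with a positive slope and 1 with a negative slope (limma; 0.659% and 0.133% of all probe and score pairs). Tyms had a negative slope on the endothelium score (limma adjusted p = 0.0364; 0.396% of all probes were so). The estimates nevertheless leaned one way for several scores. Slopes were negative in 32 of 36 members on the basal keratinocyte, differentiated keratinocyte, skeletal muscle and lymphocyte scores. They were negative in 31 of 36 on the endothelium, mast cell and melanocyte scores, and positive in 30 of 36 on the wound keratinocyte score. The share of all probes with each sign was not taken here, so a lean particular to the members is not shown. The members share the low values of exposed replicate 4, so these counts are not 36 separate observations. The part of tissue makeup in the shared variation was not tested.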

How the data were processed

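Skin RNA of 17 explants was labelled with Cy3 and hybridised to 1-colour Agilent arrays. The deposited scanner files hold linear fluorescence intensity, background-subtracted by the authors with Feature Extraction 10.7.3.1 (protocol GE1_107_Sep09), per the file headers; they also hold quality flags written by that program. The deposited value table holds log2 values, centred per probe, of 14853 probes, 31 of them member probes. Its columns correlated at 0.981 to 0.999 with the scaled log2 scanner values, after each probe's median over the arrays was subtracted from the latter. The table has column medians of -0.037 to 0.041. How it was scaled is not given in the sources used here, and it served as an alternative.

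From each processed signal the log2 was taken and the array's 75th percentile subtracted. Control and flagged spots were left out and spots of a probe averaged. Probes well above background on at least 8 of 17 arrays were kept, well above meaning that at least 50% of spots were. Names came from RefSeq tables of GRCr8, used for names because the array grid was annotated on rn4; 17998 of 30367 probes matched. A gene was read from its brightest kept probe. Fits used limma 3.58.1 in R 4.3.3, adjusted by Benjamini-Hochberg over every kept probe, at a threshold of 0.05. In slope fits the probes of the score's own genes stayed in the fit and in the adjustment. They were left out only of the shares of probes called, and can lower the adjusted p of members. The script was tested on simulated data. No 2 arrays held identical values (closest pair SD 0.34 and 0.35 log2 units); whether arrays share an animal was not tested.

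The members and lists were chosen with earlier results of these data known. Values per group are printed for the member with the smallest p and the one with the largest difference in each role, and for Pcna and Ccnd1 in any case; Mki67 and Top2a, also in that rule, had no named probe. Of each other list the 2 genes with the smallest p are named, and of the 10 genes most like the members by the slope on the score those reported here; 1 that the rule names is not reported here. The 13 marker lists were hair follicle, basal, differentiated and wound keratinocyte, sebaceous gland, fibroblast, skeletal muscle, adipocyte, endothelium, macrophage, lymphocyte, mast cell and melanocyte. Alternatives were quantile and median scaling, normexp, both filters, the mean of a gene's probes, slide as a block, array weights, each slide alone, the value table, the hair follicle score as a covariate, and leaving out each array.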

Additional observations from a re-analysis of the deposited data

Results flagged for a closer look

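Of the 78 sets of 8 or 9 values tested (each member and score in each group) 8 had a lowest or highest array that stood far from the rest by Dixon's test, where chance flags about 1 in 20. Among these, 5 concern exposed replicate 4. It was the lowest exposed array for the mean over the members, at -0.392 (next -0.07398), and for the cell cycle score of other genes, at -0.3654 (next -0.05943). It was also lowest for Rrm2 at 1.534 (next 2.156), Ccna2 at -0.6482 (next -0.1005) and Gmnn at -3.068 (next -2.823).

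The other flagged values were high. The licensing factor Cdt1 was at -3.614 in sham replicate 7, against -4.384 in the next sham array. Sham replicate 6 was highest for Rrm1 at -2.979 (next -3.246) and for Bub3 at 2.734 (next 2.63).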

How the results depend on the processing

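No member passed between exposed and sham skin under any alternative. The count of members at an unadjusted p under 0.05 was 1, and became 2 with quantile scaling, 2 with the mean of a gene's probes, 2 with array weights, 0 with slide as a block and 0 on each of slides 1, 2 and 4; it ran from 0 to 3 as each array was left out. With normexp it was 1, but that member was Ccne2 at -0.14 and not Gins2. The median member difference ran from -0.021 to 0.043 as each array was left out and its excess over all probes from 0.0028 to 0.066. Under the other settings they ran from -0.047 to 0.095 and from -0.039 to 0.141, the lowest on slide 1, where the excess turned negative, and the highest on slide 4; with the hair follicle score as a covariate the excess was 0.0005. Members called on the cell cycle score fell from 17 to 11 with normexp, 8 with the hair follicle score as a covariate and 0 without the 2 farthest arrays; with 1 array left out they ran from 0 (exposed replicate 4) to 19. At an unadjusted p the count of 27 ran from 21 to 28 with 1 array left out, and from 22 to 27 otherwise. Members called on the follicle score fell from 6 to 3 with quantile scaling, 3 with no filter, 3 with slide as a block and 1 without the 2 farthest arrays; with 1 array left out they ran from 2 to 7.

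Some estimates near 0 changed sign, on single slides or with array weights: Cdk2 0.142 on slide 2; Ccne2 0.453, Cdk1 0.266, Kif23 0.0873, Tpx2 0.205 and Ccnd1 -0.289 on slide 4; Rrm2 -0.0371 and Pcna -0.00656 on slide 1; Bub1 0.0179 on slide 2; Birc5 -0.0524 and -0.0378 on slides 1 and 2; and Ccnd1 -0.0104 with array weights. With 1 array left out, ranges that crossed 0 were Birc5 -0.014 to 0.13, Bub1 -0.085 to 0.0046, Ccnd1 -0.0081 to 0.048, Ccne2 -0.22 to 0.034, Cdk1 -0.10 to 0.022 and Tpx2 -0.13 to 0.0099. The causes were not tested. Slide 3, with 1 array of each group, could not be fitted. The files give the median pixel signal, so normexp ran on it in place of the mean. No paired analysis was possible because the labels carry no replicate numbers, and those used here follow accession order. The number of arrays limits the precision.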
